A study of Mus musculus with 10 samples.

Results

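Mycn, Phox2a, Hand2, Gata2, Gata3, Isl1, Insm1 and Tbx2 encode transcription factors that are known from neuroblastoma and from the sympathetic lineage in which this tumour arises. The set consists of these 8 named genes out of 23553 with a row in the files. Each had exactly 1 RefSeq row, so no choice between transcripts was needed. Their RNA was measured in Neuro-2a, a mouse neuroblastoma line labelled with the strain C57BL/6+C57BL/6J+CBA, after small interfering RNA (siRNA) against Sfpq, a nuclear RNA- and DNA-binding protein. Control cells received siRNA against luciferase (Luc). Both groups were expanded in 10% serum and reverse-transfected with Stealth siRNA and RNAiMAX in 2% serum, which the labels call a differentiated condition. Each siRNA is represented by 3 libraries of poly(A)-selected RNA and by 1 library from which ribosomal RNA had been removed (rRNA-depleted). The RNA polymerase II immunoprecipitation samples of the series are not analysed here. All libraries come from 1 cell line, and the labels do not say whether the poly(A) replicates were separate cultures. The p-values below therefore cover only library-to-library spread, possibly technical in origin.

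In neuroblastoma and in developing sympathetic neurons, a small group of transcription factors binds the regulatory regions of each other and of noradrenergic genes, an arrangement called a core regulatory circuit. PHOX2A, HAND2, GATA2 and GATA3, ISL1, INSM1 and TBX2 have been placed in such circuits in human noradrenergic (adrenergic) neuroblastoma lines. MYCN, a Myc-family factor that is amplified in part of the aggressive human tumours, binds widely at active promoters and enhancers in these cells. Neuro-2a is a mouse line, and these human circuits are background and not a measurement made here.

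Sfpq had 2 RefSeq rows, and only the row with the higher mean, that of a non-coding transcript, is reported here. In this row Sfpq itself checks the labels. Its level was 63.5 ± 8.42 RPKM (reads scaled to transcript length in kilobases and to library size; SD, n = 3) in the poly(A) Luc libraries and 5.07 ± 1.27 in the Sfpq libraries, or 7.97% of control. The rRNA-depleted pair held 30.8 RPKM (Luc) and 4.43 RPKM (Sfpq). Absolute depth is unknown because RPKM holds no read counts. Steps between low values put the relative depth of the poly(A) libraries between 0.628 and 1.28 of that of Luc replicate 1, and that of both rRNA-depleted libraries at 2.64 and 2.65. On log2(RPKM + 0.5), poly(A) libraries of 1 group correlated at 0.979 or more and libraries of different groups at 0.942 to 0.957. Luc replicate 3 stood somewhat apart, at 0.985 with Luc replicate 1 and 0.979 with Luc replicate 2. Luc replicates 1 and 2 correlated at 0.996 with each other, and the Sfpq libraries at 0.994 to 0.997. Of 12 neuronal markers, 10 were measurable, while the neurofilament genes Nefl and Nefm were at or near 0. Summed levels were 1726 to 1923 RPKM in the poly(A) Luc and 1402 to 1493 in the poly(A) Sfpq libraries (1156 and 877 in the rRNA-depleted pair). In the limma test described below, 4 of the 10 were lower, 2 were higher and 4 did not pass. Prph was the largest part of the poly(A) sum, at 811 RPKM in Luc and 567 in Sfpq libraries. In poly(A) RNA, summed markers of Schwann cells (2.33 to 2.78 RPKM in Luc and 2.91 to 3.55 in Sfpq), fibroblasts (1.84 to 1.87 and 2.75 to 3.32) and endothelium (2.08 to 2.51 and 1.86 to 2.73) were low, with 7 of 8, 7 of 8 and 5 of 7 genes below 1 RPKM in every library of either preparation. Blood markers summed to 11.6 to 12.1 RPKM in poly(A) Luc and 15.6 to 18.5 in poly(A) Sfpq libraries, mostly from Lck, with 6 of 9 below 1 RPKM throughout. In the rRNA-depleted pair that sum went the other way, 21.6 RPKM in Luc and 11.7 in Sfpq, with the haemoglobin gene Hba-a1 at 13.6 and 2.90 RPKM. The part of these shifts in the results below was not tested.

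The start regions of the 4 genes that passed the test are shown first, because factors of these families bind DNA at short words that can be looked up there. Each is the RefSeq window of 250 bases before to 50 bases after an annotated start in build GRCm38.p6, written 5′ to 3′ on the gene's strand. The coordinates are chr12:12941787-12942086 (minus strand) for Mycn, chr13:116309639-116309938 (minus) for Isl1, chr8:57320733-57321032 (plus) for Hand2 and chr2:9878551-9878850 (minus) for Gata3. Capitals mark matches to the E-box CANNTG, read by basic helix-loop-helix factors such as Hand2 and Mycn. They also mark the GATA word AGATAA or its complement TTATCT, and the homeodomain word TAATTA. Other forms of the GATA and homeodomain words were not searched and are not marked.
Mycn: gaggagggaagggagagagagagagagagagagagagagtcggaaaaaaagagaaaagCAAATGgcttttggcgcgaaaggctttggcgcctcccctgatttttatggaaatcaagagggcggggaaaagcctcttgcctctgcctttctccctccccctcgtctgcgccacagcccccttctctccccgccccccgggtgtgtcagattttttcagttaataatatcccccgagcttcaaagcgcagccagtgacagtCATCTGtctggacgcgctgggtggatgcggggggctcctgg
Isl1: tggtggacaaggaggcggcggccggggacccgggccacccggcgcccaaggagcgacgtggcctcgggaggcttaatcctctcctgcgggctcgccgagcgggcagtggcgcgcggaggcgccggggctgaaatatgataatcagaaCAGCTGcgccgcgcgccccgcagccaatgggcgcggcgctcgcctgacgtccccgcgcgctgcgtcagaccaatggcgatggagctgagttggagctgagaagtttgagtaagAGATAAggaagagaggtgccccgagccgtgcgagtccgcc
Hand2: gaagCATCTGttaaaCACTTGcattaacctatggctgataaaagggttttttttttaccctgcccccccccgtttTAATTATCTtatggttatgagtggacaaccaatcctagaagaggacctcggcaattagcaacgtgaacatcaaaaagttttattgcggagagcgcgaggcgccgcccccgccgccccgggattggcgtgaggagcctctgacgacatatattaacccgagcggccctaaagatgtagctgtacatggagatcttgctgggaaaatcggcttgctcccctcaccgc
Gata3: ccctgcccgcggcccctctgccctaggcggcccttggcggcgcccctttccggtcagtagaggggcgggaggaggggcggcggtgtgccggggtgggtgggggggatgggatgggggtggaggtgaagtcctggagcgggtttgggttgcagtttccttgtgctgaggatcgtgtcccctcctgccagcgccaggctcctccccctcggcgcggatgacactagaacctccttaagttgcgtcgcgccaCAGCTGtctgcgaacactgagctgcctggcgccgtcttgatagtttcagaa

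Words were searched on both strands in the 7 windows available for 6 of the 8 genes (Gata2 has 2 windows). Insm1 and Tbx2 had no window in the table. Mycn holds CAAATG starting 192 bases before its start and CATCTG within the first transcribed bases. Hand2 holds CATCTG and CACTTG near the far end of its window, 246 and 235 bases before the start. It also holds TAATTA, which overlaps TTATCT so that both words share letters. Isl1 holds CAGCTG 103 bases before its start and AGATAA just after it, and Gata3 holds CAGCTG beginning 1 base before its start. E-boxes also occurred beside genes that did not pass the test. Phox2a holds CACTTG beginning 1 base before its start, and 1 of the 2 Gata2 windows holds CAGCTG from transcribed base 18. CANNTG occurred in 72.3% of all 32851 windows and in 6 of the 7. AGATAA occurred in 11.2% and in 2 of the 7, and TAATTA in 5.29% and in 1 of the 7. CACGTG, the E-box preferred by Myc-Max dimers, occurred in 7.15% of all windows and in 0 of the 7. The narrower E-box CAGATG (or CATCTG) occurred in 17.2% of all windows and, here, in those of Hand2 and Mycn. The GC content was 56.7% for Mycn, 69.0% for Isl1, 50.3% for Hand2 and 67.3% for Gata3, beside a median of 52.7% over all windows. A match describes letters and not a bound site, and these windows were not measured in the libraries.

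Under Sfpq siRNA the set did not move as a block. Mycn, Isl1 and Hand2 fell in poly(A) RNA to 34.6%, 43.2% and 60.4% of control, Gata3 rose 1.48-fold, and Phox2a, Gata2, Insm1 and Tbx2 did not pass the test. The threshold was 0.05 for the Benjamini-Hochberg adjusted p in limma, fitted on log2(RPKM + 0.5) over 11727 genes. Of all tested genes 18.6% were called lower and 21.3% higher, beside 3 and 1 of the 8, so change in either direction was common in this comparison (40% of genes, and 4 of the 8). The groups did not overlap in 6 of the 8 genes, 4 with Sfpq lower and 2 with Sfpq higher, and in 52.9% of all tested genes (24.7% lower and 28.2% higher). The median log2 change was -0.21 over the 8 genes and 0.05 over all tested genes.

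Mycn, the Myc-family factor, changed most among the 8. Its level in the poly(A) Luc libraries was 8.83, 9.32 and 7.12 RPKM, and in the Sfpq libraries 2.79, 3.35 and 2.61 RPKM. Every Sfpq library lay well below every Luc library. The means were 8.43 ± 1.15 and 2.92 ± 0.387 RPKM (SD, n = 3 each). In limma the log2 change was -1.38 (SE 0.14, 95% interval -1.69 to -1.07, adjusted p = 8.0e-05), lower than that of all but 2.50% of tested genes. The rRNA-depleted pair gave 10.5 RPKM for Mycn under Luc and 3.37 under Sfpq siRNA, a log2 ratio of -1.50 with no replicate check. As these are bulk samples, fewer cells expressing a gene and less RNA per cell cannot be told apart, for Mycn and for every gene below.

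Isl1, a LIM-homeodomain factor needed for sympathetic and sensory neuron development in the mouse, showed the tightest replicates of the genes that fell. It was at 11.8, 11.03 and 11.7 RPKM in the poly(A) Luc libraries and at 4.79, 4.88 and 5.28 RPKM in the Sfpq libraries. The groups were far apart, with the lowest control above the highest knockdown value by more than the whole spread of either. The log2 change was -1.13 (SE 0.10, 95% interval -1.37 to -0.90, limma adjusted p = 4.3e-05), from 11.5 ± 0.443 to 4.98 ± 0.264 RPKM. The rRNA-depleted libraries gave almost the same levels, 11.6 RPKM in Luc and 4.97 in Sfpq, for a log2 ratio of -1.14.

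Hand2, a basic helix-loop-helix factor that drives noradrenergic differentiation, was the most abundant of the 8. Poly(A) Luc libraries held 93.3, 109.9 and 97.9 RPKM and Sfpq libraries 61.3, 64.3 and 56.3 RPKM. All knockdown libraries were below all controls. The mean went from 100.4 ± 8.55 to 60.7 ± 4.07 RPKM, a log2 change of -0.72 (SE 0.10, 95% interval -0.96 to -0.49, limma adjusted p = 0.000673). In the rRNA-depleted pair Hand2 was at 97.7 RPKM in Luc and 47.9 in Sfpq, or 49.1% of control.

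Gata3, a zinc finger factor that sympathetic neurons of the mouse need for survival and for their noradrenergic enzymes, was the only one of the 8 to pass the test upwards. Its poly(A) Luc values were 3.53, 3.94 and 3.31 RPKM and its Sfpq values 4.66, 6.01 and 5.31 RPKM. The groups did not overlap, although the lowest knockdown library was closer to the controls than the others. The log2 change was 0.51 (SE 0.13, 95% interval 0.22 to 0.79, limma adjusted p = 0.0115). Without Sfpq replicate 2, the highest of the 6, the change was 0.42 and the adjusted p in limma 0.0644, above the threshold of 0.05, so this call rests on that library. In rRNA-depleted RNA Gata3 was 5.55 RPKM in Luc and 7.73 in Sfpq, a log2 ratio of 0.44. A fold on this scale understates changes of low genes such as Gata3 and Mycn.

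**Figure D1:**
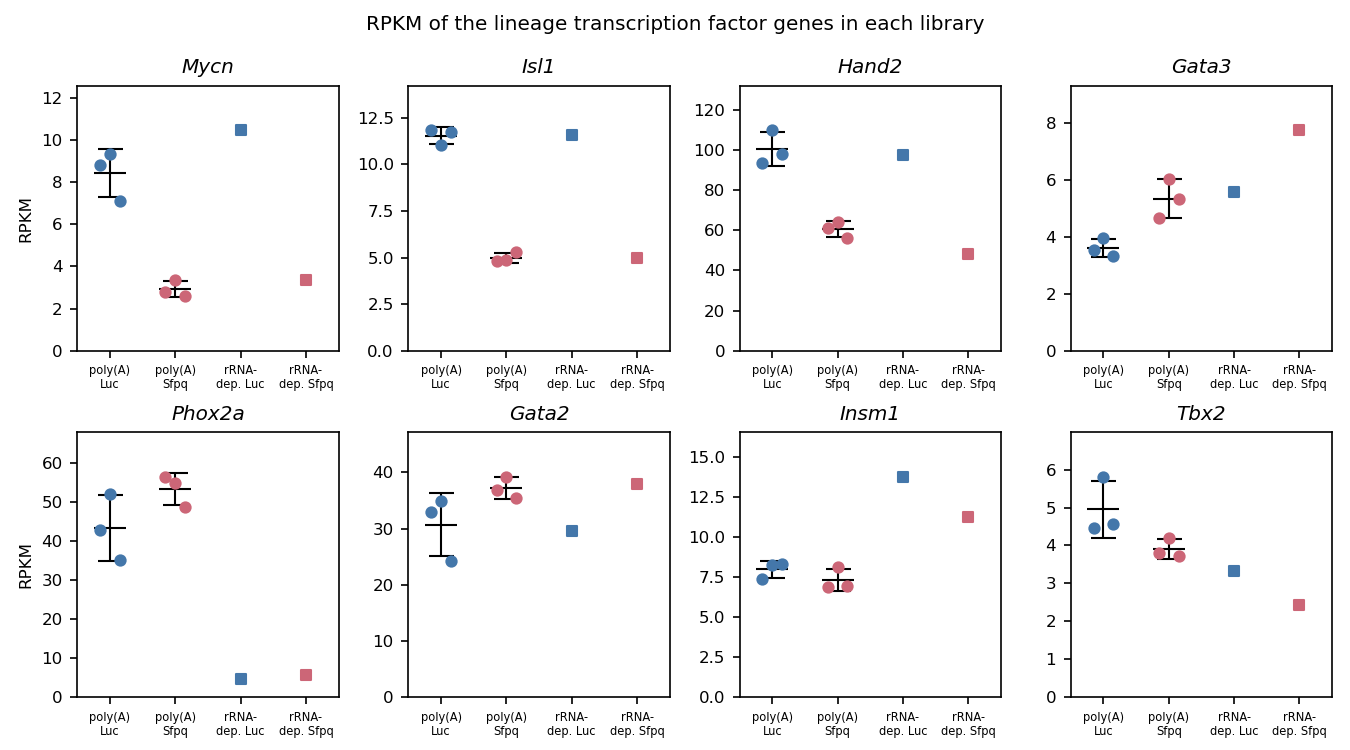
Level of each of the 8 genes in RPKM (linear axis from 0, 1 panel per gene) in poly(A) RNA (circles, 3 libraries per group, bar and whiskers for mean ± SD) and in rRNA-depleted RNA (squares, 1 library per group), with Luc in blue and Sfpq in red. For Mycn, Isl1 and Hand2 every Sfpq point lies below every Luc point of its preparation, and Phox2a is near 5 RPKM in rRNA-depleted RNA against 35.2 RPKM or more in poly(A) RNA.

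Among the genes that did not pass, Gata2, the second GATA factor of the set and like Gata3 a regulator of sympathetic development, was at 32.9, 34.9 and 24.3 RPKM in the poly(A) Luc and 36.9, 39.2 and 35.4 RPKM in the Sfpq libraries. The Sfpq values were all higher, but Luc replicate 3 was set well below the other controls. The log2 difference was 0.29 (SE 0.14, 95% interval -0.03 to 0.60, limma adjusted p = 0.128), and 0.13 without Luc replicate 3 (adjusted p = 0.194). Tbx2, a T-box factor that acts mostly as a repressor, was at 4.46, 5.81 and 4.56 RPKM in Luc and 3.80, 4.20 and 3.71 RPKM in Sfpq. Here the Sfpq values were all lower, by a small gap. The log2 difference was -0.30 (SE 0.13, 95% interval -0.59 to -0.0087), with a limma p of 0.0447 before and 0.0928 after adjustment. Without Luc replicate 3 Tbx2 passed, at -0.35 with a limma adjusted p of 0.0353.

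Phox2a, a paired-like homeodomain factor that activates the noradrenaline-synthesis gene Dbh, was at 42.8, 52.1 and 35.2 RPKM in the poly(A) Luc and at 56.6, 54.9 and 48.8 RPKM in the Sfpq libraries. The groups overlapped, since Luc replicate 2 lay above the lowest Sfpq library. The log2 difference was 0.31 (SE 0.14, 95% interval -0.01 to 0.63, limma adjusted p = 0.112). Without Luc replicate 2 it was 0.45, with a limma adjusted p of 0.0221, so the outcome depends on that control. Insm1, a zinc finger repressor of neuroendocrine and sympatho-adrenal cells, was at 7.38, 8.25 and 8.34 RPKM in Luc and 6.90, 8.11 and 6.94 RPKM in Sfpq. These groups overlapped too, and the log2 difference was -0.12 (SE 0.11, 95% interval -0.38 to 0.13, limma adjusted p = 0.423). The intervals of these 4 genes leave room for differences of up to 0.63 upwards and 0.59 downwards on the log2 scale, so a lack of change was not shown.

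The rRNA-depleted pair had the same sign as the poly(A) difference for 8 of the 8 genes, beside 86.7% of 11208 genes measured in both preparations. At 1.5-fold or more, 3 of the 8 were lower in the Sfpq library and 0 were higher, beside 13.3% and 7.86% of 11386 genes. Mycn, Isl1 and Hand2 were the 3. Phox2a was 4.59 RPKM in Luc and 5.69 in Sfpq, Gata2 29.6 and 37.9, Insm1 13.8 and 11.3, and Tbx2 3.33 and 2.42. Those 4 values have no error of their own.

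**Figure D2:**
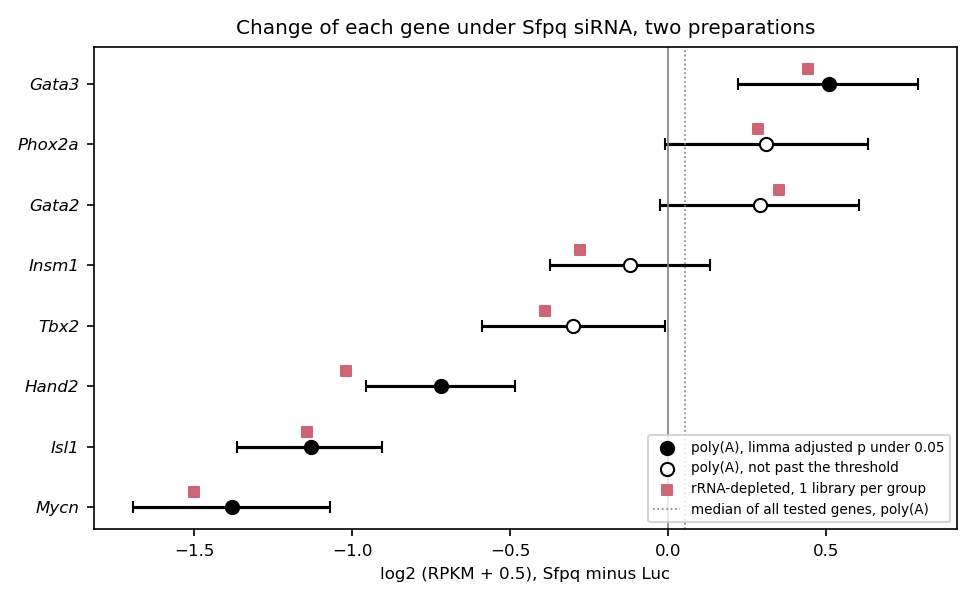
Difference between Sfpq and Luc in log2(RPKM + 0.5) for each gene: circles give the poly(A) estimate with its 95% interval in limma (filled where the adjusted p is under 0.05, open otherwise) and red squares the ratio of the single rRNA-depleted libraries. Circle and square lie on the same side of 0 for all 8 genes, from -1.38 and -1.50 for Mycn to 0.51 and 0.44 for Gata3.

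The order of the levels changed with the knockdown. RPKM is per length, but the order also differed between the preparations, so it is given for each preparation apart. In poly(A) Luc libraries it ran Hand2, Phox2a, Gata2, Isl1, Mycn, Insm1, Tbx2 and Gata3, and among neighbours only the ranges of Mycn and Insm1 overlapped. In Sfpq libraries it ran Hand2, Phox2a, Gata2, Insm1, Gata3, Isl1, Tbx2 and Mycn, with overlapping ranges for Hand2 and Phox2a and for Gata3 and Isl1. Mycn thus went from the fifth place to the last in poly(A) RNA. In the rRNA-depleted pair Mycn was in the fifth place in Luc and above only Tbx2 in Sfpq, and Phox2a was above only Tbx2 in Luc. In poly(A) RNA of control cells Hand2 was above 94.5% of tested genes, Phox2a above 86.6%, Gata2 above 80.8%, Isl1 above 56.7%, Mycn above 47.1%, Insm1 above 45.9%, Tbx2 above 33.9% and Gata3 above 26.6%. The summed level of the 8 was 211 ± 22.0 RPKM in Luc and 176 ± 10.5 in Sfpq (n = 3 each), and 177 and 121 in the rRNA-depleted pair. Within the poly(A) sum the share of Hand2 was 47.7% ± 2.81 in Luc and 34.5% ± 0.263 in Sfpq, while the share of Phox2a was 20.5% ± 1.96 and 30.4% ± 1.25. In the rRNA-depleted pair Hand2 made up 55.3% and 39.5%, and Phox2a only 2.60% and 4.69%. The poly(A) share of Gata2 was 14.5% ± 1.73 and 21.2% ± 0.404, so that Phox2a and Gata2 made up more of the total without passing the test themselves.

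The preparations differed for 1 gene far more than for the rest. Phox2a was 9.46-fold higher in poly(A) than in rRNA-depleted RNA of control cells and 9.38-fold higher in knockdown cells, ratios of 3.09 and 3.12 on the log2(RPKM + 0.5) scale. That was above the ratio of 99.2% of genes in Luc and 99.0% in Sfpq, where the median over all genes was 0.43 and 0.49. For the other 7 genes the log2 ratio in control cells ran from -0.75 for Insm1, with only 2.11% of genes lower, through -0.57 for Gata3, -0.31 for Mycn, -0.01 for Isl1 and 0.04 for both Hand2 and Gata2, to 0.50 for Tbx2. The preparation and its single library per group cannot be told apart here. How reads shared between transcripts or strands were counted is not given in the sources used here.

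**Figure D3:**
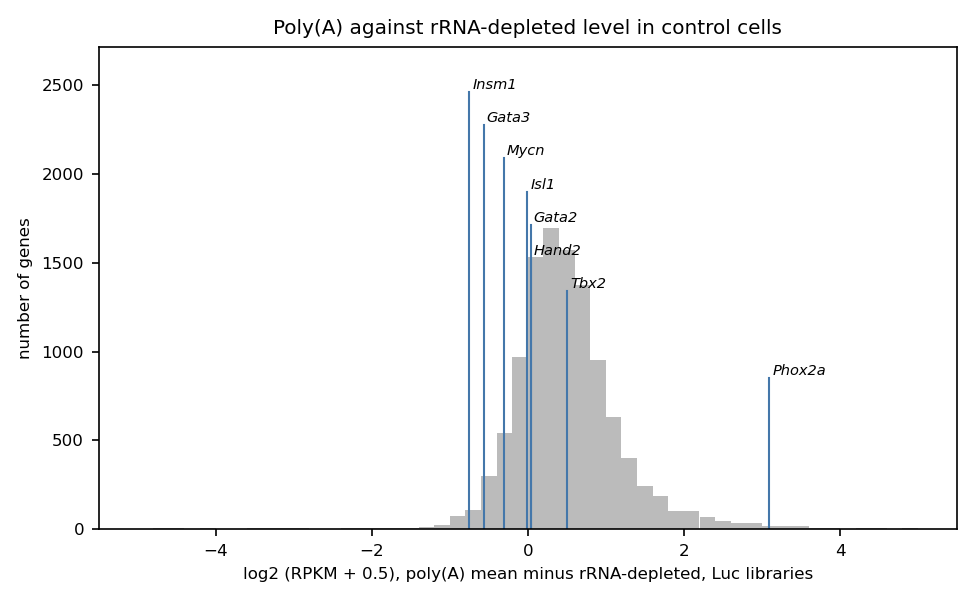
Number of genes (grey bars) by the difference between the mean poly(A) and the rRNA-depleted level in Luc libraries, in log2(RPKM + 0.5), with a blue line for each of the 8 genes; 52 genes lie outside the plotted range. Phox2a stands at 3.09 in the right tail, and the others lie between -0.75 and 0.50.

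From the families of the 8 genes, 14 further members were listed, not all that exist, and 6 of them were expressed highly enough to be tested. Of these 6, 4 were called lower and 0 higher (0 at an unadjusted p under 0.05 in limma), with a median log2 change of -0.43. The shares over all tested genes, 18.6% lower and 21.3% higher, belong beside this count and each list count below. Myc, the best known member of the Myc family and far more abundant here than Mycn, fell from 56.7 ± 5.10 to 39.4 ± 4.65 RPKM, a log2 change of -0.52 (SE 0.12, limma adjusted p = 0.00697). For Myc the rRNA-depleted pair held 61.4 and 31.6 RPKM.

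Gata4, a GATA factor better known from heart and endoderm, fell from 15.2 ± 1.39 to 11.9 ± 0.508 RPKM, a log2 change of -0.35 (limma adjusted p = 0.0285). That call ended when any poly(A) library other than Luc replicate 3 was left out, with adjusted p up to 0.126 in limma. Tbx1, another T-box gene, fell by 0.59 on the log2 scale from 1.03 RPKM (limma adjusted p = 0.0201). This call ended without Luc replicate 1 or 2, at a limma adjusted p of up to 0.0537. In the rRNA-depleted pair Tbx1 was near 0, at 0.0526 RPKM in Luc and 0.0349 in Sfpq. Isl2, the relative of Isl1 known from motor neurons, was at 6.10 ± 2.23 RPKM in Luc and 8.37 ± 0.369 in Sfpq (limma adjusted p = 0.110), and it passed without Luc replicate 2, at an adjusted p of 0.0158. Tbx4, the neighbour of Tbx2, was at 1.91 and 1.92 RPKM (limma adjusted p = 0.930). Of the other 8 genes, Mycl, Hand1, Gata1, Gata5, Gata6, Insm2, Tbx3 and Tbx5, all stayed below 1 RPKM in each of the 8 libraries and 3 were listed at 0 in every one.

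Within libraries, ratios of relatives removed any scaling of the library as a whole. The 5 pairs were chosen after their values were seen, so they are given as a description with no test. Myc over Mycn was 6.22 to 7.40 in the poly(A) Luc and 11.4 to 15.98 in the Sfpq libraries. Isl1 over Isl2 was 1.34 to 3.12 in Luc and 0.556 to 0.656 in Sfpq, so that the more abundant of the pair was Isl1 in every control and Isl2 in every knockdown library. The groups did not overlap for either pair.

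Gata3 over Gata4 was 0.235 to 0.237 in Luc and 0.386 to 0.492 in Sfpq, and Gata2 over Gata4 was 1.73 to 2.20 and 3.05 to 3.21, again without overlap. Gata2 over Gata3 was 7.33 to 9.30 in Luc and 6.53 to 7.91 in Sfpq, with overlapping groups. In the rRNA-depleted pair Isl1 over Isl2 was 2.27 in Luc and 0.854 in Sfpq, and Myc over Mycn was 5.86 and 9.36. Gata3 over Gata4 was 0.299 and 0.621 there, and Gata2 over Gata4 was 1.59 and 3.04.

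**Figure D4:**
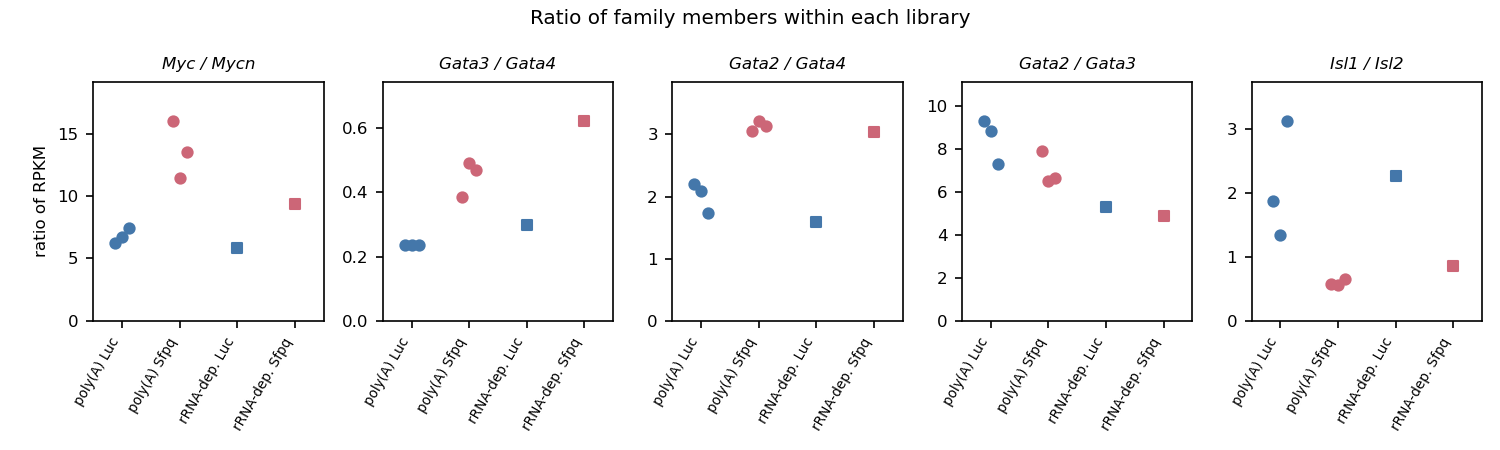
Ratio of the RPKM of relatives within each library (linear axes from 0, 1 panel per pair), for poly(A) RNA (circles, 3 libraries per group) and rRNA-depleted RNA (squares, 1 per group), Luc in blue and Sfpq in red. In poly(A) RNA the groups are separate for 4 pairs and overlap for Gata2 over Gata3.

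Other transcription factors of the adrenergic neuroblastoma state moved in both directions. Of 26 listed, 15 were tested, 5 were called higher and 4 lower, and the median log2 change was 0.18. Satb1, a chromatin organiser, rose from 5.74 ± 0.212 to 12.02 ± 0.109 RPKM (log2 change 1.01, limma adjusted p = 6.9e-05). Dlx2, a homeobox gene of forebrain interneurons, rose by 0.95 and Hey1, a Notch target, by 0.80 on the log2 scale. Dlx2 was low, at 0.838 RPKM in poly(A) Luc and 2.09 in poly(A) Sfpq libraries. The rRNA-depleted pair held 0.133 RPKM of Dlx2 in Luc and 0.277 in Sfpq. Zbtb7c, a zinc finger gene, fell from 1.97 ± 0.238 to 0.282 ± 0.0397 RPKM, a log2 change of -1.65 (limma adjusted p = 1.9e-05). The homeobox gene Meis2 fell by 0.56.

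Factors of the opposite, mesenchymal state of neuroblastoma numbered 18 tested of 30 listed, with 3 higher, 3 lower and a median log2 change of 0.13. Wwtr1, the Hippo pathway coactivator TAZ, rose by 1.10 and Irf1, an interferon regulatory factor, by 0.98 on the log2 scale. Notch2 rose by 0.40, a call that ended without Sfpq replicate 2 or 3 (limma adjusted p up to 0.103). Id1, an inhibitor of helix-loop-helix factors, fell by 1.03 and Creg1 by 0.62. Mef2d fell by 0.52, a call that ended without Sfpq replicate 1 or 3 (limma adjusted p up to 0.0552). Neither state's list thus moved one way.

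Partners and regulators of the 8 proteins were described in 3 lists. Of 10 tested genes of the Myc-Max network, 4 were called lower and 0 higher (2 at an unadjusted p under 0.05 in limma), with a median of -0.02. After Myc these were Mxd4 (-0.46) and Mlx (-0.44), and Max, the obligate dimer partner of Mycn, at -0.31. The Mxd4 call ended without Sfpq replicate 2 or 3, and the Max call without any single library other than Luc replicate 3. Of 10 genes for enzymes and kinases that set Mycn protein stability, 3 were called higher and 0 lower (0 at an unadjusted p under 0.05 in limma). Skp2, a ubiquitin ligase subunit acting on Myc proteins, rose from 19.2 ± 1.13 to 37.4 ± 1.61 RPKM (log2 change 0.95, limma adjusted p = 8.9e-05). Usp7, a deubiquitinase, was called at 0.35 and Aurka, the kinase that shields MYCN from degradation in human cells, at 0.27. Both calls ended without Luc replicate 1 or 2 or Sfpq replicate 2 or 3, which left a count of 1. The Aurka call also ended without Sfpq replicate 1 (a count of 2), with median-ratio scaling, without a trended prior and with the replicate block.

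Of 21 tested dimerisation partners and cofactors, 3 were called higher and 7 lower, with a median log2 change of 0.09. Hipk2, a homeodomain-interacting kinase, rose by 0.96 and Zfpm1 (FOG-1), the GATA cofactor, by 0.67 on the log2 scale. Tcf3, an E protein that pairs with Hand2-type factors, was called at 0.40 with a limma adjusted p of 0.0490, a call lost without Luc replicate 1 or 3 or Sfpq replicate 2 or 3. That call was also lost without a filter, with median-ratio scaling or quantile normalization, without a trended prior and with the mean of all rows. Lmo2, a LIM-only bridging protein, fell from 3.27 ± 0.264 to 1.33 ± 0.386 RPKM (log2 change -1.06, limma adjusted p = 0.000953). The dominant-negative helix-loop-helix genes Id1 and Id4 fell by 1.03 and 1.00.

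Genes known as targets of Mycn or of Myc proteins in general changed in both directions. Of 30 tested, 12 were called lower and 4 higher, with a median log2 change of -0.28. Odc1, the rate-limiting enzyme of polyamine synthesis, fell from 219.9 ± 25.2 to 97.4 ± 10.97 RPKM (log2 change -1.17, limma adjusted p = 0.000105). Srm, spermidine synthase of the same pathway, fell by 0.84 and Nolc1, a nucleolar protein, by 0.60. Mcm7, a replicative helicase subunit, rose by 0.58, and Slc16a1, a lactate transporter, and Hnrnpa1, a splicing factor, each rose by 0.47. The count of lower calls was 5 when Luc replicate 1 or any 1 of the Sfpq replicates was left out. The number of lower calls over all tested genes moved as well, from 2185 to between 1673 and 2645 when 1 library was left out.

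Genes of the noradrenergic phenotype were split. Of 13 tested, 5 were called higher and 5 lower, and the median log2 change was 0.09. Chga, the chromogranin of secretory granules, rose by 0.75, and Cyb561, a granule electron carrier, by 0.48. Dbh, the noradrenaline-synthesising enzyme, rose by 0.54 from 0.822 ± 0.0509 to 1.44 ± 0.226 RPKM, a call that ended without Sfpq replicate 2 (limma adjusted p up to 0.0545). Alk, a receptor kinase mutated in human neuroblastoma, fell from 3.22 ± 0.397 to 0.258 ± 0.0544 RPKM (log2 change -2.29, limma adjusted p = 3.6e-06). Gch1, which makes the cofactor of tyrosine hydroxylase, fell by 0.88 and Ret, a neurotrophic receptor, by 0.83. The 5 higher calls became 2 without Sfpq replicate 2 and 3 without Luc replicate 2 or Sfpq replicate 1 or 3. Several genes stand in more than 1 of these lists, so the counts are not independent.

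**Figure D5:**
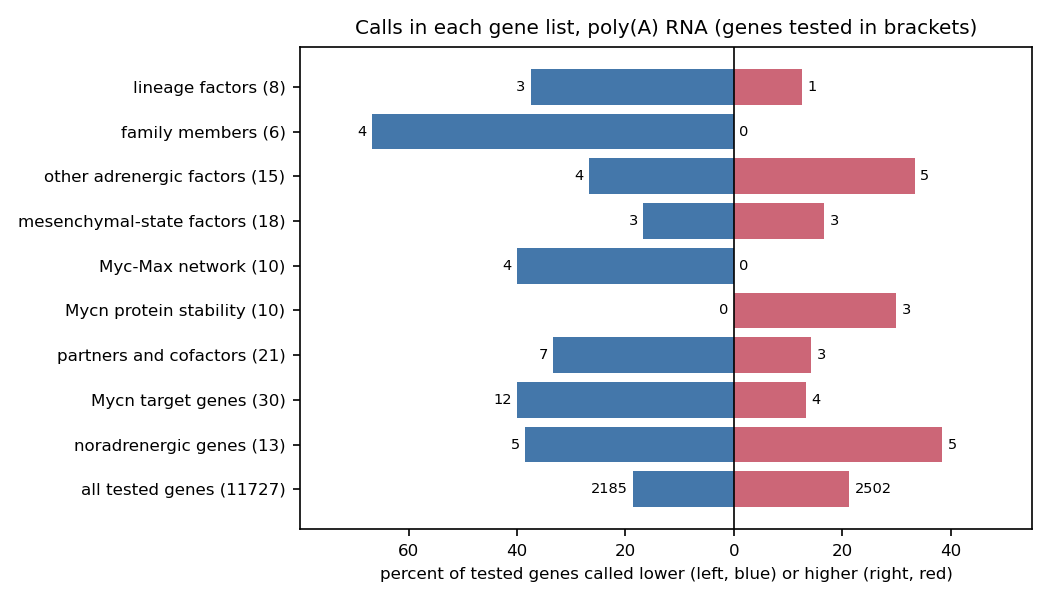
Percent of the tested genes of each list that were called lower (blue, left of 0) or higher (red, right of 0) in poly(A) RNA, with the number of genes called at each bar and the number tested in brackets. Over all 11727 tested genes 18.6% were lower and 21.3% higher, beside 3 and 1 of the 8 lineage factors.

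The genes with profiles most like each of the 8 over the 8 libraries were found by the root-mean-square difference between centred log2 profiles among 9931 genes. For Mycn these were Tln2 (0.115), Gab2 (0.148) and Nceh1 (0.155). Isl1 was nearest to B3gnt9 (0.0664), Fam168b (0.0714) and Tango6 (0.0882), and Hand2 to Plekho1 (0.0782), Dusp1 (0.0836) and Pop1 (0.0844). Gata3 was nearest to Tmem127 (0.0723), Cep170b (0.0764) and a row without a gene name, Gata2 to Nacad (0.0548), Tlnrd1 (0.0599) and Ttc7 (0.0770), and Phox2a to Cdt1 (0.131), Syvn1 (0.133) and Cdk11b (0.140). For Insm1 the nearest were Dip2b (0.0602), Slc7a5 (0.0651) and Etv3 (0.0675), and for Tbx2 Pacs1 (0.0654), Aldoa (0.0675) and Ebp (0.0710). These values describe likeness over shared libraries and carry no test. The profiles span both preparations. In Luc libraries the poly(A) over rRNA-depleted log2 ratio was 3.34 for Cdt1, 2.96 for Syvn1, 3.00 for Cdk11b and 3.09 for Phox2a. No other member of the set was among the 3 nearest of any of the 8. With only 3 taken from 9931 genes, this absence says little about how alike the 8 are.

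The nearest genes on either side in the gene order did not move uniformly with them. Beside Mycn, which fell, the RNA helicase gene Ddx1, which lies next to it and is often co-amplified with it in human tumours, was called higher by 0.34 (limma adjusted p = 0.0215), a call that ended without any single library other than Luc replicate 3. Beside Phox2a, which did not pass, Inppl1 rose by 0.65 (limma adjusted p = 0.00142) and Clpb did not pass. Beside Gata2, Rpn1, a subunit of the oligosaccharyltransferase, fell by 0.59 (limma adjusted p = 0.000947). Beside Isl1, which fell by 1.13, Parp8 was called lower by 0.35 (limma adjusted p = 0.0243) and Pelo did not pass. The neighbour 4930412O13Rik of Gata3 was called at 0.64, from 0.721 to 1.44 RPKM (limma adjusted p = 0.0312), and Ralgapa2 beside Insm1 at -0.41 (limma adjusted p = 0.0184). Fbxo8 beside Hand2 did not pass. The Parp8 call ended without Luc replicate 1 or any 1 of the Sfpq libraries (limma adjusted p up to 0.101), that of 4930412O13Rik without Luc replicate 1 or Sfpq replicate 2 or 3 or without a filter (up to 0.109), and that of Ralgapa2 without any 1 of the Sfpq libraries (up to 0.0644). Tbx4, the neighbour of Tbx2 described above, did not pass either. Every other neighbour was at or near 0, and whether reads of overlapping or antisense genes were separated by strand is not given in the sources used here.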

How the data were processed

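RPKM per RefSeq transcript, 1 file per library, is what the authors deposited, per the file headers. The submitters' processing notes name TopHat2 2.0.10 and the build mm9. Not given in the sources used here are the RPKM program, the annotation release, the use of strand and how reads matching several places were counted. Groups and replicate numbers came from the sample titles; for Sfpq poly(A) replicate 2 the description field carries a different number.

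Of 30978 rows, 30507 (98.5%) were named through a gene table of assembly GRCm38.p6, used for names, gene order and promoter windows only, since it is not the authors' build. The row with the highest mean stood for each gene with several. The poly(A) comparison used limma 3.58.1 (R 4.3.3) on log2(RPKM + 0.5), trended and two-sided, where the 6 libraries averaged 0.5 RPKM or more. The rRNA-depleted pair was described by log2 ratios on that scale, without a test. Family ratios were described without a test. Python 3.11.15, numpy 2.4.6 and pandas 2.3.3 were used. Precision comes from the replicates, as RPKM gives no read counts.

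The 8 genes and all gene lists were chosen with earlier results of these data known. Named genes were the 8, Sfpq, the family members, up to 3 called genes per direction of each list, the 3 most alike profiles and the nearest neighbours; Max was added with its values known. Some listed genes enter the counts but are not reported here. Results were recomputed with pseudocounts of 0.1 and 1, without a filter, with a minimum of 2 RPKM, with quantile normalization or median-ratio scaling, with an untrended limma prior, with a replicate block, with the sum or mean of a gene's rows, and without each library.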

Additional observations from a re-analysis of the deposited data

How the results depend on the processing

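The direction of all 8 genes held under every alternative run. Under the 10 alternatives that kept all libraries, each of the 8 calls was also kept, with log2 changes of -1.50 to -1.26 for Mycn, -1.20 to -1.07 for Isl1, -0.77 to -0.62 for Hand2 and 0.46 to 0.55 for Gata3. Leaving out 1 library at a time gave -1.49 to -1.31 for Mycn, -1.17 to -1.11 for Isl1 and -0.77 to -0.65 for Hand2, all called. It gave 0.42 to 0.59 for Gata3, 0.17 to 0.45 for Phox2a, -0.36 to -0.19 for Tbx2, 0.13 to 0.39 for Gata2 and -0.19 to -0.083 for Insm1, with calls lost or gained as reported, so that 0 to 2 of the 8 were called higher. In the rRNA-depleted pair the ratio of Mycn was -1.61 with a pseudocount of 0.1 and -1.39 with 1.

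For the lists, leaving out 1 library gave 0 to 1 family members called higher and 2 to 4 lower, 2 to 5 mesenchymal-state factors higher and 2 to 5 lower, 0 to 1 Myc-Max genes higher and 2 to 4 lower, 1 to 4 protein-stability genes higher and 0 to 1 lower, 2 to 7 partners higher, 5 to 12 Mycn targets lower and 2 to 5 noradrenergic genes higher. Medians ran from -0.32 to -0.16 for Mycn targets, from -0.019 to 0.11 for partners and from 0.022 to 0.22 for noradrenergic genes. With quantile normalization 5 partners were called higher and the median of Mycn targets was -0.22. With median-ratio scaling that median was -0.32, that of the Myc-Max network -0.067, and 3 noradrenergic genes were called higher. With a minimum mean of 2 RPKM this count was also 3, and the medians were 0.048 for other adrenergic factors, -0.092 for mesenchymal-state factors and -0.11 for the Myc-Max network. Without a filter the medians were 0.00067 for family members and 0.045 for other adrenergic factors. The cause of these shifts was not tested, apart from the filters, which change the genes tested.

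Whether same-numbered Luc and Sfpq libraries were pairs was not settled. Their deviations from the group means correlated at 0.327, -0.035 and 0.157, and those of differently numbered libraries at -0.277 to 0.166. The value for replicate 1 was the highest of all, but Luc replicates 2 and 3 correlated best with another number. With the replicate block 1 family member, Isl2, was called higher, and the 8 genes kept their 3 lower calls and 1 higher call. Over all tested genes, 1546 to 3621 were called higher and 1673 to 2645 lower when 1 library was left out, beside 2502 and 2185 with every library. These ranges belong beside the list counts with 1 library left out. RPKM gives no read counts, so no detection limit could be set, and the single rRNA-depleted pair gives no error.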
